A study of Mus musculus with 4 samples.

Results

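The epidermal barrier ceramide genes are 9 genes whose products make, modify, carry or release the ceramides of the outer skin (*Sptlc2*, *Elovl1*, *Elovl4*, *Cers3*, *Cyp4f39*, *Pnpla1*, *Ugcg*, *Abca12* and *Smpd1*). The rule for them uses gene symbols and no measured values, although they were picked with earlier results of these data known, and all 9 were found among the 24346 symbols of each deposited file. RNA of dorsal skin from C57BL/6 mice was sequenced in 4 libraries. The mice, 8-week-old males when the diets began, received a NASH diet for 3 weeks, which is rich in fat, cholesterol, sucrose and bile salt and induces steatohepatitis. In the Cont-IMQ group (2 libraries) the diet held no 7-ketocholesterol (7KC), an oxidized derivative of cholesterol, and in the 7KC-IMQ group (2 libraries) it did. All 4 skins had imiquimod (IMQ) cream for 1 day, which induces psoriasis-like dermatitis, so neither vehicle-treated skin nor a normal diet is part of the comparison. Nothing in the labels says that the libraries of a group came from separate mice, and p-values then measure only the spread between these libraries.

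The outermost layer of the epidermis, the stratum corneum, holds its water in by stacked sheets of ceramides, cholesterol and free fatty acids between the dead cells. Keratinocytes build the ceramides from a sphingoid base and a very long fatty acid, add linoleic acid to some of them, mask them with a sugar or a phosphocholine head group, and load them into lamellar granules, from which they are released and unmasked at the top of the granular layer. Loss of several of these genes in people causes ichthyosis, a scaling disease with a leaky barrier.

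The values are FPKM as deposited, that is, fragments scaled by the length of the gene's exons and by the number of fragments mapped in the library. Paired values are given in the order replicate 1, replicate 2 of each group. The files give no counts. Where a gene has 1 annotated transcript and a low level, its FPKM moves in steps of 1 read, and from these steps the depth was estimated at between 14940000 and 16170000 mapped reads a library. The step fitted to within 0.1 read in 73.6% to 77.9% of these low genes, where evenly spread values would do so in 20%. By the length of their longest transcript, the 9 genes rest on an estimated 1070 reads (*Pnpla1*, Cont-IMQ replicate 2) to 27200 reads (*Elovl4*, 7KC-IMQ replicate 1). Counting error alone would be 3.06% of the value at the lowest of these estimates. It would be larger where shorter transcripts make up the RNA, since the reads are then fewer. The groups were compared by limma on log2(FPKM + 1) in the 15896 genes with a mean of at least 0.1 FPKM, with Benjamini-Hochberg adjustment over all of them. Suprabasal epidermis was present in each library, with its keratin *Krt10* at 8444 and 4597 FPKM in Cont-IMQ skin against 5283 and 5553 FPKM in 7KC-IMQ skin. The Cont-IMQ libraries lay far apart in 15 hair follicle genes, in each of which replicate 1 was the lowest and replicate 2 the highest of the 4 libraries, with sums of 136 and 1643 FPKM against 494 and 437 FPKM in 7KC-IMQ skin.

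All 9 genes passed the filter on low values, and they were well expressed. Their mean FPKM over the 4 libraries lay between the 69.5th percentile (*Pnpla1*) and the 98.8th percentile (*Elovl4*) of the genes tested. Since FPKM is per length, the levels of different genes can be set side by side. *Elovl4*, the elongase that makes ultra-long fatty acids, was the highest with a mean of 531 FPKM, followed by *Elovl1* with 259 FPKM and *Smpd1* with 107 FPKM. *Cers3*, *Ugcg*, *Abca12* and *Cyp4f39* lay close together, with means of 59.3, 53.9, 44.2 and 40.1 FPKM. *Sptlc2* with 24.8 FPKM and *Pnpla1* with 18.1 FPKM were the lowest. This order was the same in each library, except that *Cyp4f39* and *Abca12* changed places in 7KC-IMQ replicate 1. The ranges over the 4 libraries overlapped between *Cers3* (52.2 to 71.4 FPKM) and *Ugcg* (49.4 to 65.1 FPKM), and between *Abca12* (40.1 to 48.3 FPKM) and *Cyp4f39* (35.7 to 46.1 FPKM), but not between the other neighbours.

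**Figure D1:**
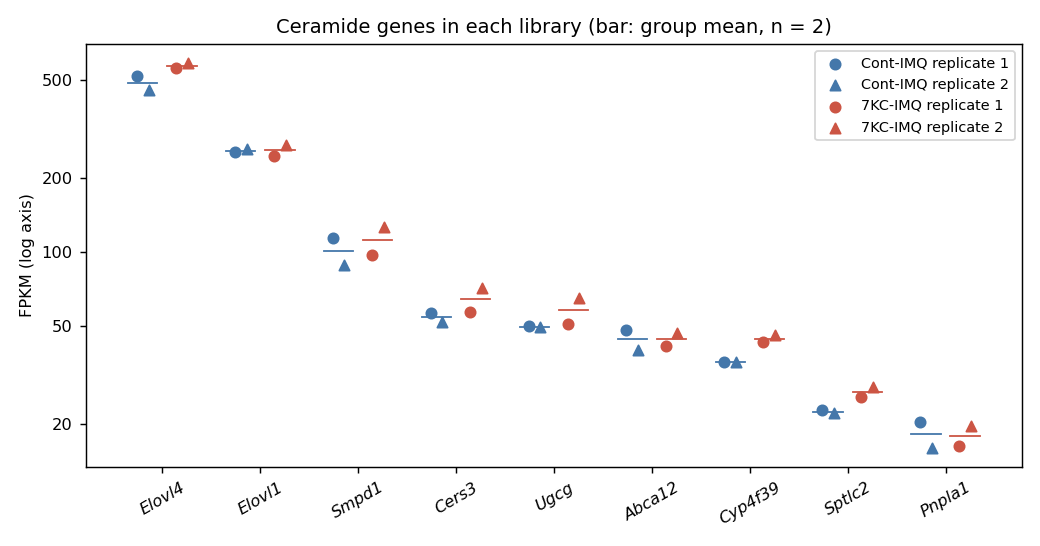
FPKM of the 9 ceramide genes (x axis, ordered by mean level) in each library, on a log axis. Points are single libraries and bars are group means of 2 libraries. *Cyp4f39*, *Sptlc2*, *Elovl4*, *Ugcg* and *Cers3* have their 7KC-IMQ points above their Cont-IMQ points, and the points of the other 4 genes overlap.

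Most of the ceramide genes were slightly higher in the 7KC-IMQ group, by differences that did not pass the adjusted test. In 5 of the 9 genes, *Cyp4f39*, *Sptlc2*, *Elovl4*, *Cers3* and *Ugcg*, every 7KC-IMQ value exceeded every Cont-IMQ value, by 16.2% (*Ugcg*) to 24.5% (*Cyp4f39*) in mean FPKM. In *Smpd1*, *Elovl1*, *Abca12* and *Pnpla1* the groups overlapped, and no gene was lower without overlap in the values as deposited. Over all genes tested, 23.9% were higher and 22.9% lower without overlap, together 46.8%. By limma, 0 of the 9 genes passed an adjusted p-value of 0.05, and the adjusted values ran from 0.356 to 0.995. At an unadjusted p-value under 0.05, 2 of the 9 were higher (*Cyp4f39* and *Sptlc2*) and 0 lower, beside 7.50% higher and 5.47% lower of all genes tested (13.0% together). After adjustment 1 gene of all tested passed (0.00629%), the microRNA gene *Mir24-2*, which is named here after its value was seen and is no ceramide gene. The median difference of the 9 genes was 0.20 on the log2(FPKM + 1) scale, against -0.0056 over all genes tested. With 2 libraries a group, the smallest p-value that exact permutation of the libraries allows is 0.333 (two-sided).

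The difference rested in large part on 7KC-IMQ replicate 2. The mean log2(FPKM + 1) of the 9 genes was 6.14 and 5.99 in Cont-IMQ skin against 6.11 and 6.32 in 7KC-IMQ skin. Thus 7KC-IMQ replicate 1 lay between the Cont-IMQ libraries, and 7KC-IMQ replicate 2 above them. Without 7KC-IMQ replicate 2, the median difference of the 9 genes was 0.027, and 0 genes stayed under an unadjusted p-value of 0.05 in limma. Without Cont-IMQ replicate 2, the library with the highest hair follicle genes, the median difference was 0.14, and 1 gene (*Cyp4f39*) had an unadjusted p-value under 0.05. Without Cont-IMQ replicate 1, the library with the lowest, the median difference was 0.28, and 2 genes had an unadjusted p-value under 0.05 in limma. With each library rescaled to the same sum of FPKM, 6 of the 9 genes were higher in mean and 3 lower, against 8 and 1 as deposited.

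**Figure D2:**
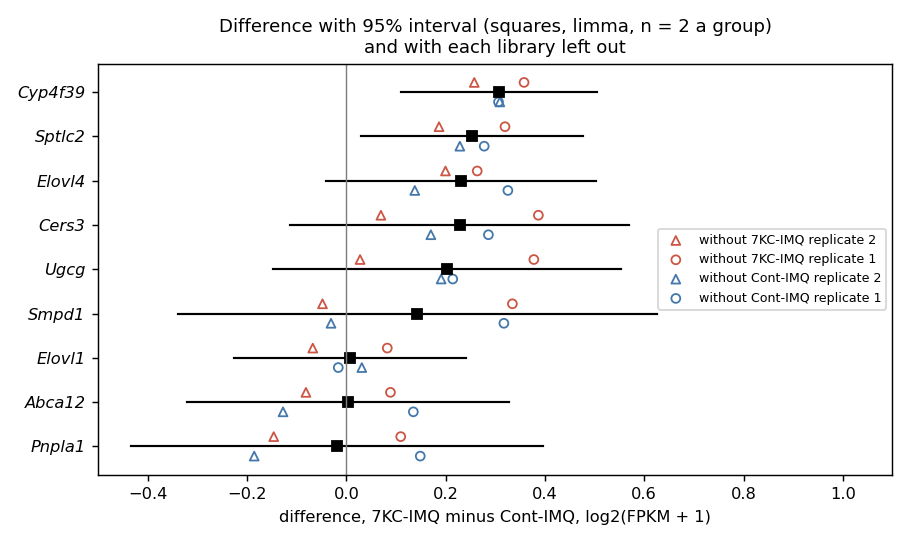
Difference of each ceramide gene between the groups (x axis, 7KC-IMQ minus Cont-IMQ in log2(FPKM + 1)), with squares for the estimate, lines for its 95% interval in limma (n = 2 a group) and open symbols for the estimate with 1 library left out. The intervals of *Cyp4f39* and *Sptlc2* lie above 0, and leaving out 7KC-IMQ replicate 2 moves all 9 estimates down.

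Sphingoid bases are made by serine palmitoyltransferase, which joins serine with palmitoyl-CoA in the committed step of ceramide synthesis. *Sptlc2* (ENSMUSG00000021036.10, chromosome 12 of GRCm38, the assembly also called mm10, from 87305058 to 87388355 on the minus strand) encodes a catalytic subunit of this enzyme. It had 22.9 and 22.1 FPKM in Cont-IMQ skin against 25.7 and 28.3 FPKM in 7KC-IMQ skin. The 7KC-IMQ values exceeded both Cont-IMQ values. The log2 difference was 0.25 (standard error 0.085, 95% interval 0.030 to 0.48, unadjusted p = 0.0338, adjusted p = 0.365 in limma), and it was 0.19 without 7KC-IMQ replicate 2. The unadjusted p-value was under 0.05 in 6 of 14 settings, and in 0 of the 4 with a library left out. *Sptlc1*, whose product is the partner of *Sptlc2*, had 43.0 and 38.6 FPKM in Cont-IMQ skin against 41.8 and 48.0 FPKM in 7KC-IMQ skin, which overlapped. *Sptlc3*, the alternative catalytic subunit, had 34.2 and 30.6 FPKM against 30.3 and 31.0 FPKM. The ratio of *Sptlc2* to *Sptlc3* was 0.670 and 0.723 in the Cont-IMQ libraries and 0.848 and 0.912 in the 7KC-IMQ libraries. Of the 8 other genes of this step, including the Ormdl inhibitors of the enzyme, 7 were lower in mean and 1 higher. Lower without overlap were 2 of the 8 (*Kdsr* and *Ormdl1*), which is near the 22.9% of all genes tested. By limma, 0 of the 8 had an unadjusted p-value under 0.05.

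Very long fatty acids are built from shorter chains by a cycle of enzymes in the endoplasmic reticulum, in which the elongases set the chain length. *Elovl1* (ENSMUSG00000006390.15, chromosome 4, 118428093 to 118432953, plus strand) extends saturated chains that feed the later elongase. It had 254 and 263 FPKM in Cont-IMQ skin against 247 and 274 FPKM in 7KC-IMQ skin, so the Cont-IMQ values lay between the 7KC-IMQ values. Its log2 difference was 0.0072, with a 95% interval from -0.23 to 0.24 (adjusted p = 0.983 in limma). *Elovl4* (ENSMUSG00000032262.13, chromosome 9, 83778692 to 83806277, minus strand) had 521 and 457 FPKM in Cont-IMQ skin against 561 and 586 FPKM in 7KC-IMQ skin, without overlap. The log2 difference was 0.23 (standard error 0.10, 95% interval -0.041 to 0.50, adjusted p = 0.437 in limma), and 0.14 without Cont-IMQ replicate 2. Within each library *Elovl4* exceeded *Elovl1* by a factor of 1.74 to 2.27, with 2.05 and 1.74 in the Cont-IMQ libraries and 2.27 and 2.14 in the 7KC-IMQ libraries.

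The other enzymes of fatty acid elongation and activation were, like *Elovl4*, higher in mean with 7KC. Of the 10 other genes tested, all 10 were higher in mean in the 7KC-IMQ group and 5 without overlap, beside 48.7% and 23.9% of all genes tested. The median log2 difference of the 10 was 0.16, and it was 0.062 without Cont-IMQ replicate 2 and 0.26 without Cont-IMQ replicate 1. With the same sum of FPKM, 2 of the 10 were higher and 0 lower without overlap. Of all genes tested, 14.98% were higher and 32.15% lower without overlap under that scaling. With the libraries rescaled to the same sum of FPKM, 9 of the 12 genes of this step, *Elovl1* and *Elovl4* included, were higher in mean, and after quantile normalization 10 of 12. With each library left out in turn, 10 to 12 of the 12 were higher in mean. *Elovl3*, an elongase of sebaceous glands and hair follicles, had the largest difference among them, with 128 and 110 FPKM in Cont-IMQ skin against 174 and 175 FPKM in 7KC-IMQ skin. By limma, its log2 difference was 0.55 (standard error 0.098) with an adjusted p of 0.352, and it lay between 0.44 and 0.67 under the alternatives. *Hacd2*, a dehydratase of the elongation cycle, had 41.9 and 39.1 FPKM against 48.2 and 47.9 FPKM. *Elovl2* was near 0 in each library and was not tested.

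Ceramide synthases join the fatty acid to the sphingoid base, and each prefers chains of a certain length. *Cers3* (ENSMUSG00000030510.11, chromosome 7, 66743504 to 66823691, plus strand) encodes the synthase that accepts the ultra-long chains of the epidermis. It had 56.6 and 52.2 FPKM in Cont-IMQ skin against 57.1 and 71.4 FPKM in 7KC-IMQ skin. The groups did not overlap, but 7KC-IMQ replicate 1 and Cont-IMQ replicate 1 were nearly equal. The log2 difference was 0.23 (standard error 0.13, 95% interval -0.11 to 0.57, adjusted p = 0.521 in limma), and it was 0.069 without 7KC-IMQ replicate 2. *Cers3* was the highest of the ceramide synthases in each library, and its ratio to *Cers4* was between 1.61 and 2.20. *Cers6*, which prefers shorter chains, was the only gene of ceramide assembly that was lower without overlap, with 5.96 and 6.15 FPKM in Cont-IMQ skin against 4.19 and 4.39 FPKM in 7KC-IMQ skin. Its log2 difference was -0.42 (standard error 0.098, unadjusted p = 0.00970, adjusted p = 0.356 in limma). *Degs2*, which hydroxylates the base to give phytoceramide, had 13.0 and 9.68 FPKM against 12.6 and 24.9 FPKM, a log2 difference of 0.62 that was 0.15 without 7KC-IMQ replicate 2. *Fa2h*, the fatty acid 2-hydroxylase, had 114 and 70.0 FPKM against 124 and 113 FPKM, which overlapped, and its log2 difference of 0.40 was 0.054 without Cont-IMQ replicate 2.

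Acylceramides, the ceramides that carry linoleic acid, are particular to the barrier of land mammals. *Cyp4f39* (ENSMUSG00000061126.5, chromosome 17, 32452723 to 32493320, plus strand) encodes the cytochrome that adds a hydroxyl group to the far end of the ultra-long fatty acid. Its level was 35.7 and 35.8 FPKM in Cont-IMQ skin, where the replicates differed by a factor of 1.00, against 42.9 and 46.1 FPKM in 7KC-IMQ skin. The 7KC-IMQ values were the higher pair. The group means were 35.8 ± 0.0471 and 44.5 ± 2.24 FPKM (SD, n = 2), a ratio of 1.25. The log2 difference was 0.31 (standard error 0.075, 95% interval 0.11 to 0.51, unadjusted p = 0.0110, adjusted p = 0.356 in limma), the largest of the 9 genes, and it lay between 0.23 and 0.43 under the other settings and between 0.26 and 0.36 with each library left out. The unadjusted p-value of *Cyp4f39* was under 0.05 in 12 of 14 settings, the exceptions being the fit without 7KC-IMQ replicate 2 and the scaling to suprabasal epidermis genes. *Pnpla1* (ENSMUSG00000043286.12, chromosome 17, 28858411 to 28890309, plus strand) encodes the transacylase that then attaches linoleic acid. It had 20.4 and 16.0 FPKM in Cont-IMQ skin against 16.3 and 19.6 FPKM in 7KC-IMQ skin, so the 7KC-IMQ values lay between the Cont-IMQ values. Its log2 difference was -0.019, with a 95% interval from -0.43 to 0.40 (adjusted p = 0.974 in limma). An antisense gene, *Pnpla1os*, lies on the other strand, and 12.1% of the 75-base windows of *Pnpla1* also occur in another gene, so its value is uncertain as far as the counting did not use strand. The share was at most 0.04% in the other 8 genes. *Abhd5*, whose product activates the PNPLA1 enzyme, had 53.9 and 51.2 FPKM in Cont-IMQ skin against 59.2 and 67.6 FPKM in 7KC-IMQ skin (log2 difference 0.26, standard error 0.094, adjusted p = 0.373 in limma). Of the acylceramide genes, therefore, *Cyp4f39* and *Abhd5* were higher without overlap and *Pnpla1* was not.

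The bases just before the start of transcription are shown for *Cyp4f39* and *Sptlc2*, the ceramide genes with an unadjusted p-value under 0.05, and for *Abca12*, whose group means were equal. The sequences are the 250 bases before the RefSeq start (GRCm38.p6), 5′ to 3′ on the strand of the gene, with each GC box, GGGCGG on either strand, in capitals.
Cyp4f39 (chr17:32452473-32452722, plus strand): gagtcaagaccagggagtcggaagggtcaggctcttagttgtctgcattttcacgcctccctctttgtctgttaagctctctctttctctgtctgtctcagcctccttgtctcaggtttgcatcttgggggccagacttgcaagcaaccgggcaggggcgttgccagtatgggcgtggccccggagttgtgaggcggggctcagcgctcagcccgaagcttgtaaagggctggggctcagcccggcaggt
Sptlc2 (chr12:87388356-87388605, minus strand): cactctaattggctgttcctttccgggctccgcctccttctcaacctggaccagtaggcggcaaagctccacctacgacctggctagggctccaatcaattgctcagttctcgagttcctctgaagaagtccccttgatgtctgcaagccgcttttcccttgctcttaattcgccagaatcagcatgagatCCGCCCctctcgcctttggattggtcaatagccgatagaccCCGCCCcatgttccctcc
Abca12 (chr1:71414911-71415160, minus strand): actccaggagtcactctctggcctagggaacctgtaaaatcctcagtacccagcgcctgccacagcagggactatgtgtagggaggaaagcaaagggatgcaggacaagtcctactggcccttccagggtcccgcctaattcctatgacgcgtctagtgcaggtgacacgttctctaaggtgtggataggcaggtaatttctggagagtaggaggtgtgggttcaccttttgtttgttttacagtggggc
*Sptlc2* has 2 GC boxes in this window, whereas *Cyp4f39* and *Abca12* have 0. All 9 genes were matched in the RefSeq table, with 10 starts, since *Elovl1* has 2. At least 1 GC box was found before *Elovl1*, *Elovl4*, *Smpd1*, *Sptlc2* and *Ugcg*. No GC box was found before *Abca12*, *Cers3*, *Cyp4f39* and *Pnpla1*. Over all 32851 windows of this length, 32.7% hold a GC box. The share of G and C was highest before *Ugcg* (80.4%) and lowest before *Cers3* (49.6%). The AP-1 motif TGANTCA, present in 6.75% of all windows on either strand, the TATA box TATAAA, present in 12.4%, and the grainyhead-like motif AACCNGGTT, present in 0.24%, were found before 0 of the 9 genes. The DR4 element of the oxysterol receptors LXR was searched on either strand, only as an exact match to a fixed motif within the 250 bases. It was found before 0 of the 9 genes and in 0.015% of all windows (5 of 32851). Matches as rare as those of the DR4 and grainyhead-like motifs were unlikely in 9 genes from the outset. The 0 therefore cannot show that these genes lack such elements, and looser matches or other regions were not tested. A CCAAT box, CCAAT on either strand, was found before *Elovl1*, *Pnpla1*, *Smpd1* and *Sptlc2* and in 33.9% of all windows. The genes higher without overlap, *Cyp4f39*, *Sptlc2*, *Elovl4*, *Cers3* and *Ugcg*, include some with a GC box and some without.

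Ceramides are masked before transport. *Ugcg* (ENSMUSG00000028381.8, chromosome 4, 59189257 to 59222833, plus strand) encodes the enzyme that adds glucose to ceramide. It had 50.3 and 49.4 FPKM in Cont-IMQ skin against 50.8 and 65.1 FPKM in 7KC-IMQ skin. The groups did not overlap, although 7KC-IMQ replicate 1 exceeded Cont-IMQ replicate 1 only slightly. The log2 difference of 0.20 (standard error 0.13, 95% interval -0.15 to 0.55, adjusted p = 0.570 in limma) was 0.027 without 7KC-IMQ replicate 2. *Abca12* (ENSMUSG00000050296.14, chromosome 1, 71242276 to 71414910, minus strand) encodes the transporter that loads glucosylceramide into lamellar granules, and its loss causes harlequin ichthyosis. It had 48.3 and 40.1 FPKM in Cont-IMQ skin against 41.6 and 46.9 FPKM in 7KC-IMQ skin. The means, 44.2 ± 5.80 and 44.2 ± 3.77 FPKM (SD, n = 2), differed by less than the spread between replicates, and the 95% interval of the log2 difference was -0.32 to 0.33 (adjusted p = 0.995 in limma). The sphingomyelin synthases *Sgms1* and *Sgms2*, which add phosphocholine instead of glucose, were both lower without overlap, as were 22.9% of all genes tested. *Sgms1* had 27.1 and 27.6 FPKM against 26.5 and 24.6 FPKM (unadjusted p = 0.280, adjusted p = 0.639 in limma). *Sgms2* had 2.63 and 2.92 FPKM against 2.35 and 2.00 FPKM (unadjusted p = 0.0963, adjusted p = 0.461 in limma). The ratio of *Ugcg* to *Sgms1* was 1.85 and 1.79 in the Cont-IMQ libraries and 1.92 and 2.65 in the 7KC-IMQ libraries.

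Outside the cell, the head groups are removed again. *Smpd1* (ENSMUSG00000037049.9, chromosome 7, 105554360 to 105558389, plus strand) encodes acid sphingomyelinase, which turns sphingomyelin into ceramide. It had 114 and 89.0 FPKM in Cont-IMQ skin against 97.3 and 127 FPKM in 7KC-IMQ skin. The groups overlapped, and of the 9 genes it had the largest ratio between replicates of the 7KC-IMQ group (1.31). The log2 difference was 0.14 (standard error 0.18, 95% interval -0.34 to 0.63, adjusted p = 0.774 in limma), and it took the opposite sign without Cont-IMQ replicate 2 (-0.031) or without 7KC-IMQ replicate 2 (-0.048). *Smpd2*, which encodes a neutral sphingomyelinase inside the cell, had 14.0 and 15.3 FPKM in Cont-IMQ skin against 12.2 and 11.8 FPKM in 7KC-IMQ skin (log2 difference -0.27, standard error 0.090, adjusted p = 0.365 in limma). *Psap*, the precursor of the saposins that help these enzymes, was lower without overlap as well, with 399 and 394 FPKM against 358 and 343 FPKM (adjusted p = 0.434 in limma).

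The genes that break ceramide down were lower in the 7KC-IMQ group, though none passed the adjusted test. This group holds the ceramidases (*Asah1*, *Asah2*, *Acer1*, *Acer2* and *Acer3*), the sphingosine kinases (*Sphk1* and *Sphk2*) and the lyase *Sgpl1*. All 8 were lower in mean in the 7KC-IMQ group, 6 of them without overlap, and the median log2 difference was -0.25, or -0.13 without Cont-IMQ replicate 1. Over all genes tested, 51.3% were lower in mean and 22.9% lower without overlap. By limma, unadjusted p-values under 0.05 were found in 2 of the 8, both lower, *Asah2* (20.9 and 18.2 FPKM against 15.8 and 16.3 FPKM) and *Acer3* (9.55 and 9.88 FPKM against 7.93 and 7.81 FPKM), and 0 passed after adjustment. The median log2 difference of the 8 genes was -0.30 without Cont-IMQ replicate 2, -0.25 without 7KC-IMQ replicate 1 and -0.22 without 7KC-IMQ replicate 2. *Sgpl1* had 71.2 and 56.2 FPKM against 52.8 and 49.6 FPKM and a log2 difference of -0.30, which was -0.13 without Cont-IMQ replicate 1 and -0.47 without Cont-IMQ replicate 2. All 8 stayed lower in mean under the 3 planned other scalings and 7 or 8 of them with each library left out in turn. Scaled to the suprabasal epidermis genes, a setting chosen after seeing the data, 7 of 8 were lower in mean but only 1 without overlap.

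Over the whole list of 56 ceramide pathway genes found in the files, 55 were tested. In limma, 6 of the 55 were higher (10.9%) and 4 lower with an unadjusted p-value under 0.05, and 0 passed after adjustment. Of all genes tested, 7.50% were higher and 5.47% lower at this threshold. Without overlap, 12 of the 55 were higher and 13 lower (21.8% and 23.6%), near the 23.9% and 22.9% of all genes tested. The split by unadjusted p-value in limma was 3 higher and 6 lower with the same sum of FPKM and 5 and 6 after quantile normalization. The median log2 difference of the list was 0.059, and 0.019 for the 46 genes tested that are not among the 9. The sign of the list's median was not stable, with -0.021 under the same sum of FPKM, -0.0042 without Cont-IMQ replicate 2 and -0.025 without 7KC-IMQ replicate 2. Among the genes that fix ceramides to the cornified envelope, *Tgm1*, a transglutaminase that cross-links envelope proteins, had 94.0 and 91.5 FPKM in Cont-IMQ skin against 119 and 159 FPKM in 7KC-IMQ skin. By limma, its log2 difference was 0.56 (standard error 0.15) with an adjusted p of 0.356, and it was 0.35 without 7KC-IMQ replicate 2. The lipoxygenases of the same pathway overlapped, *Alox12b* with 80.4 and 73.3 FPKM against 76.5 and 97.9 FPKM and *Aloxe3* with 27.1 and 23.3 FPKM against 22.5 and 25.6 FPKM.

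**Figure D3:**
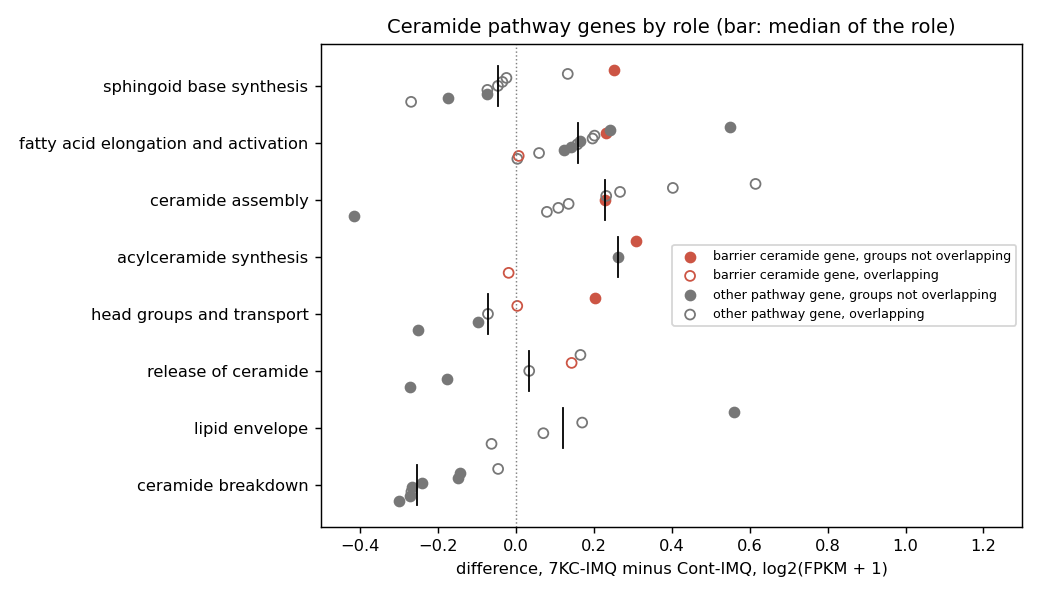
Difference between the groups (x axis, 7KC-IMQ minus Cont-IMQ in log2(FPKM + 1)) of the 55 ceramide pathway genes tested, by role, with the 9 ceramide genes in red, filled points for genes without overlap between the groups and bars for the median of each role. All 12 elongation genes lie above 0 (9 with the same sum of FPKM, 10 after quantile normalization) and all 8 breakdown genes below 0 (7 when scaled to the suprabasal epidermis genes).

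The 9 genes could also be compared by their profile over the 4 libraries, as the root mean square difference of log2(FPKM + 1) after centring each gene on its own mean, against the 52 other pathway genes with a mean of at least 1 FPKM. The nearest gene to *Sptlc2* was *Abhd5* (0.022) and the nearest to *Cyp4f39* was *Sptlc2* (0.035), where the median over the other genes was 0.17 and 0.19. *Cers3* was nearest to *Alox12b* (0.032), *Ugcg* to *Cers3* (0.037) and *Abca12* to *Aloxe3* (0.039). With 4 libraries these are descriptions only.

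In bulk skin, more cells of a type and more RNA per cell cannot be told apart. Of the 15 suprabasal epidermis genes tested, 1 was higher and 4 lower without overlap, and their sum was 27902 and 19054 FPKM in Cont-IMQ skin against 20886 and 22925 FPKM in 7KC-IMQ skin. Scaled to these genes, the mean of the 7KC-IMQ group was the higher one in 9 of the 9 ceramide genes, with no overlap in 8. This scaling moved all genes tested up, with a median of 0.084 and with 22.7% higher and 6.74% lower without overlap. Of the 9 genes, 0 had an unadjusted p-value under 0.05 in limma, and the differences of *Cyp4f39* and *Sptlc2* became 0.43 and 0.37. Of the 13 sebaceous gland genes, 11 were higher and 2 lower without overlap, and their sum was 3097 and 2730 FPKM in Cont-IMQ skin against 3825 and 5034 FPKM in 7KC-IMQ skin. With the same sum of FPKM, 7 of the 13 were higher and 2 lower without overlap, beside 14.98% and 32.15% of all genes tested. *Elovl3* belongs to this list too, and *Awat1*, a wax synthase of the gland, had 54.1 and 51.6 FPKM against 73.7 and 75.1 FPKM. The 2 lower genes were *Mc5r*, with 2.86 and 2.62 FPKM against 1.34 and 1.38 FPKM, and *Awat2*, with 13.2 and 13.3 FPKM against 13.0 and 13.1 FPKM. Most of the sum came from *Fabp5*, with 2127 and 1866 FPKM against 2703 and 3909 FPKM. Of the 6 endothelial genes, 5 were lower without overlap, with sums of 51.3 and 57.5 FPKM against 43.6 and 42.1 FPKM. Of the 7 neutrophil genes tested, 4 were higher and 1 lower without overlap. Only 3 of the 7 had a mean of at least 1 FPKM, of which 2 were higher and 1 lower. The sums of the 9 neutrophil genes found were 20.0 and 24.4 FPKM against 27.8 and 31.7 FPKM. Most of each sum came from *Cxcr2* alone, with 13.39 and 15.05 FPKM against 20.16 and 23.03 FPKM. The hair follicle genes overlapped in all 15. The mean log2(FPKM + 1) of 7 basal epidermis genes was 8.08 and 8.01 in Cont-IMQ skin against 7.95 and 7.92 in 7KC-IMQ skin, and that of 8 macrophage genes was 6.26 and 6.43 against 6.17 and 6.23, both lower without overlap. By summed FPKM, however, both lists overlapped. The sums were 8095 and 7254 FPKM against 8082 and 8884 FPKM for basal epidermis, and 940 and 1147 FPKM against 895 and 949 FPKM for macrophages. By single genes without overlap, 2 of 7 basal epidermis genes were higher and 2 lower, as were 3 and 1 of 10 adipocyte genes, 2 and 3 of 10 skeletal muscle genes, 1 and 1 of 7 fibroblast genes, 0 and 3 of 8 macrophage genes, 1 and 2 of 6 T cell genes and 0 and 1 of 5 red blood cell genes. Of the defining markers, *Mpo* of neutrophils was listed at 0 in Cont-IMQ replicate 1. The part of these cell types in the ceramide genes was not tested.

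**Figure D4:**
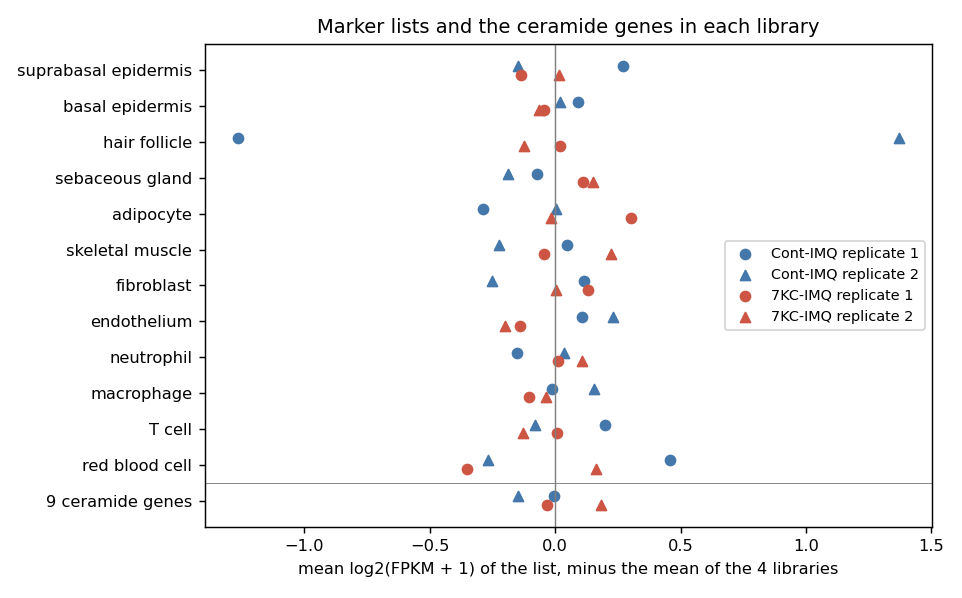
Mean log2(FPKM + 1) of 12 marker lists and of the 9 ceramide genes in each library, as the difference from the mean of the 4 libraries (x axis). The sebaceous gland list is higher and the endothelium, basal epidermis and macrophage lists are lower in both 7KC-IMQ libraries, although the basal epidermis and macrophage lists overlap by summed FPKM. The hair follicle list is far apart in the Cont-IMQ libraries, and for the ceramide genes 7KC-IMQ replicate 1 lies between the Cont-IMQ libraries.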

How the data were processed

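RNA of dorsal skin was sequenced in 2 Cont-IMQ and 2 7KC-IMQ libraries. Single-end reads of 75 bases were aligned to mm10 by the authors, who deposited FPKM per gene symbol, 1 file a library. The submitters' processing notes name TopHat2 2.1.1, Bowtie2 2.2.8, SAMtools 0.1.18 and Cuffdiff 2.2.1, whereas the paper's methods name Cufflinks and other versions, and whether strand was used is not given in the sources used here. No scaling was added, and log2(FPKM + 1) was compared by limma 3.58.1 in R 4.3.3 with a variance trend. A fold on this scale understates the change of low genes. The 9 genes, the pathway and marker lists and the rule for named genes were chosen with earlier results of these data known. The rule names the 9 genes, each other pathway gene without overlap and with an unadjusted p-value under 0.05, and the 3 largest other differences. *Kdsr*, *Ormdl1*, *Sgms1*, *Sgms2*, *Psap*, *Awat1*, *Awat2*, *Mc5r*, *Fabp5*, *Cxcr2*, *Alox12b*, *Aloxe3*, *Sptlc1* and *Sptlc3* are named beside it, chosen after their values were seen. The breakdown genes are named as a whole list, *Elovl2* as the pathway gene that was not tested and *Cers4* for its ratio to *Cers3*. *Krt10* and *Mpo* are named as defining markers. Gene models are from GENCODE M21 (GRCm38) and promoters from RefSeq (GRCm38.p6). The alternatives were another pseudocount, other filters and scalings, no variance trend, the replicate block and leaving out each library.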

Additional observations from a re-analysis of the deposited data

How the results depend on the processing

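The median difference of the 9 ceramide genes kept its sign under every alternative and ranged from 0.027 to 0.32. No alternative brought a ceramide gene past an adjusted p-value of 0.05, with adjusted p-values of 0.322 or more. *Elovl1* and *Abca12* took the opposite sign after quantile normalization (-0.039 and -0.044) and with the same sum of FPKM (-0.074 and -0.077). With each library left out in turn, *Elovl1* ranged from -0.068 to 0.082, *Abca12* from -0.13 to 0.13, *Pnpla1* from -0.19 to 0.15 and *Smpd1* from -0.048 to 0.33. The ceramide genes without overlap were 3 after quantile normalization, all higher, beside 23.2% higher and 22.1% lower of all genes tested. They were 6 to 8 with a library left out, with 2 of 7 lower without Cont-IMQ replicate 2 and 1 of 6 lower without 7KC-IMQ replicate 2. Since 2 against 1 overlap less often by construction, 33.3% to 38.8% of all genes tested were then higher and 33.5% to 39.1% lower without overlap. Those with an unadjusted p-value under 0.05 were 1 with the same sum of FPKM and 1 without the variance trend, and 0 to 3 with a library left out. With a library left out, the pathway list had 2 to 15 such genes, all genes tested had 615 to 2331, and 1 to 9 of them passed after adjustment. The counts at an unadjusted p-value under 0.05 were lowest without 7KC-IMQ replicate 2, and without 7KC-IMQ replicate 1 all genes tested had 1137. After adjustment 9 genes passed without Cont-IMQ replicate 1 and 5 without Cont-IMQ replicate 2. With a pseudocount of 0.1, 2 genes passed after adjustment. The same sum of FPKM turned the split of all genes with an unadjusted p-value under 0.05 from 1192 higher and 869 lower to 638 and 1230. With the replicate block, 1 ceramide gene and 6 pathway genes had an unadjusted p-value under 0.05. The labels number replicates alike in both groups, but the replicate differences of the groups correlated at 0.078 over 13110 genes with only 2 pairs, so the numbers were not taken to pair the libraries. Scaled to the suprabasal epidermis genes, a setting chosen after seeing the data, 250 genes passed after adjustment, 921 of all genes, 4 of the pathway list and 0 ceramide genes had an unadjusted p-value under 0.05, 8 ceramide genes did not overlap, and *Pnpla1* was at 0.097. The cause of these shifts was not tested. With 2 libraries a group, the 95% interval included 0 in 7 of the 9 genes.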
